A study of Homo sapiens with 15 samples.

Results

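To examine the gene expression of tumors formed by RASSF1A-transfected cells, 6 of the 15 arrays of the series were compared, 3 from RASSF1A tumors and 3 from vector tumors, each array holding the RNA of a separate tumor. The tumors were assigned to their groups by the labels, and precision is set by their small number. They were xenografts of HCT116, a human colon carcinoma line, in athymic nude mice. The RASSF1A cells carried HA-tagged wild-type RASSF1A in pCDNA3 and the vector cells carried empty pCDNA3, introduced by transient transfection. HCT116 cells also contain RASSF1A and MOAP-1 of their own, so the vector tumors are not without either, and the host mice lack T cells but keep other leukocytes, fibroblasts, and vessels. Per the methods, the transfected protein lasts for days in culture whereas tumors were excised after weeks, and the labels do not state how much construct was left by then. The other 9 tumors, from cells given MOAP-1 or its K264R or K278R changes, entered the fit to estimate the spread and are named only where a result needs them.

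RASSF1A is a scaffold protein without enzyme activity that carries a Ras association domain. It binds microtubules, joins the MST kinases of the Hippo pathway through its SARAH domain, and opens MOAP-1 after death receptor stimulation so that MOAP-1 can activate BAX. Its promoter is among the most often methylated in human cancers, while other transcripts of RASSF1 start at a second promoter and can stay on.

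Levels are given as log2 of the processed intensity relative to the 75th percentile of the same array, so that a level of 0 equals that percentile and a difference of 1 is 2-fold. A gene was called at a Benjamini-Hochberg adjusted p below 0.05 in limma with a change of at least 1.5-fold. The 75th percentile of the 6 arrays lay between 613 and 818 intensity units, and between 85.1 and 90.5% of their probes were well above background. The 3 vector tumors and RASSF1A tumor 3 were on 1 slide, and RASSF1A tumors 1 and 2 were on another slide that was scanned on a later day. Each main result is therefore also given for tumor 3 and for tumors 1 and 2 apart. For each of the 3 RASSF1A columns of the deposited log2 table, the values follow the array of another RASSF1A tumor, and tumor numbers here are those of the scanner output. All 19 colon epithelial markers were well above background in each of the 6 tumors. Since most probes were, this does not by itself show the tissue. Their levels ran widely, with KRT19 at 7.28 to 7.63 and CEACAM5 at -6.00 to -5.63.

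No difference between the constructs was detected at the RASSF1 probe. This gene encodes RASSF1A, but the files do not state whether its only kept probe reads the transfected cDNA. The levels were 1.56, 1.55, and 1.59 in the RASSF1A tumors and 1.72, 1.52, and 1.81 in the vector tumors, and the RASSF1A values lay inside the range of the vector values. The difference was -0.12 ± 0.10 (SE) in log2, with a 95% interval of -0.34 to 0.11, that is, a level of 0.789 to 1.08 times that of vector tumors (adjusted p = 0.671, limma). MOAP1, the gene for the partner MOAP-1, read -0.48, -0.52, and -0.23 in RASSF1A tumors against -0.18, -0.53, and -0.13 in vector tumors. These groups overlap, with a difference of -0.13 ± 0.14. The 9 tumors of the MOAP-1, K264R, and K278R constructs all lay above them at the MOAP1 probe, at 0.11 to 0.71. These 9 shared no slide with the vector or RASSF1A tumors, so that construct and slide cannot be told apart.

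**Figure D1:**
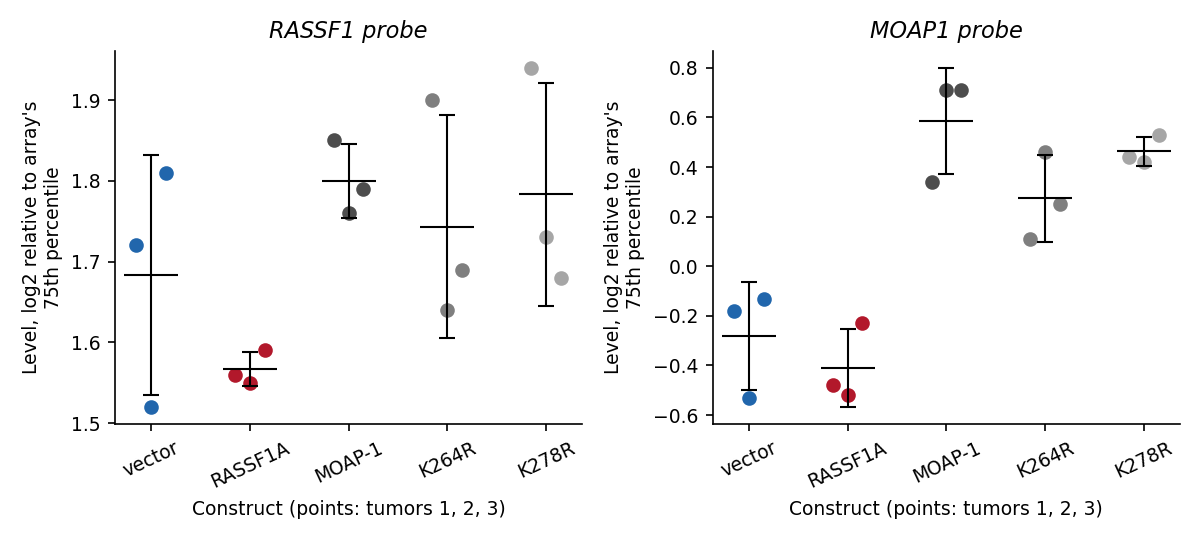
Levels of the RASSF1 and MOAP1 probes (y axis, log2 relative to the 75th percentile of the array) in the 3 tumors of each of the 5 constructs (x axis). Points are tumors, and bars are the mean and SD. RASSF1A tumors lie at 1.55 to 1.59 for RASSF1, within the vector range. All 9 MOAP-1, K264R, and K278R tumors, which were on other slides, lie above the RASSF1A and vector tumors for MOAP1.

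Across the genome, no gene passed the test between the 3 RASSF1A and the 3 vector tumors. Of 25063 genes tested, 0 were called (0%), and the lowest adjusted p was 0.32 in limma. The methods' t-test also called 0 after adjustment, and 186 genes passed it without adjustment at 1.5-fold. Before adjustment, 1105 genes (4.41%) passed an unadjusted p of 0.05 with a change of at least 1.5-fold, 350 higher (1.4%) and 756 lower (3.02%) in RASSF1A tumors, and 1 gene had probes in both directions. The median 95% interval of a gene reached 0.31 to either side in log2, or 1.24-fold, and for 68.8% of genes the whole interval lay inside a 1.5-fold change. For 90.4% it lay inside 2-fold. Observed differences of at least 2-fold were found at a probe of 135 genes higher and 213 lower, and of at least 4-fold at 2 higher and 12 lower.

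RASSF1A tumor 3 was nearer to the vector tumors than these were to each other, and RASSF1A tumors 1 and 2 were farther away than tumor 3. The median absolute difference over all kept probes was 0.127 to 0.154 between RASSF1A tumor 3 and the vector tumors of its slide. It was 0.166 to 0.179 between vector tumors. Between RASSF1A tumors 1 and 2 it was 0.157, and between these and tumor 3 it was 0.168 and 0.198. RASSF1A tumors 1 and 2 lay 0.173 to 0.245 from the vector tumors.

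**Figure D2:**
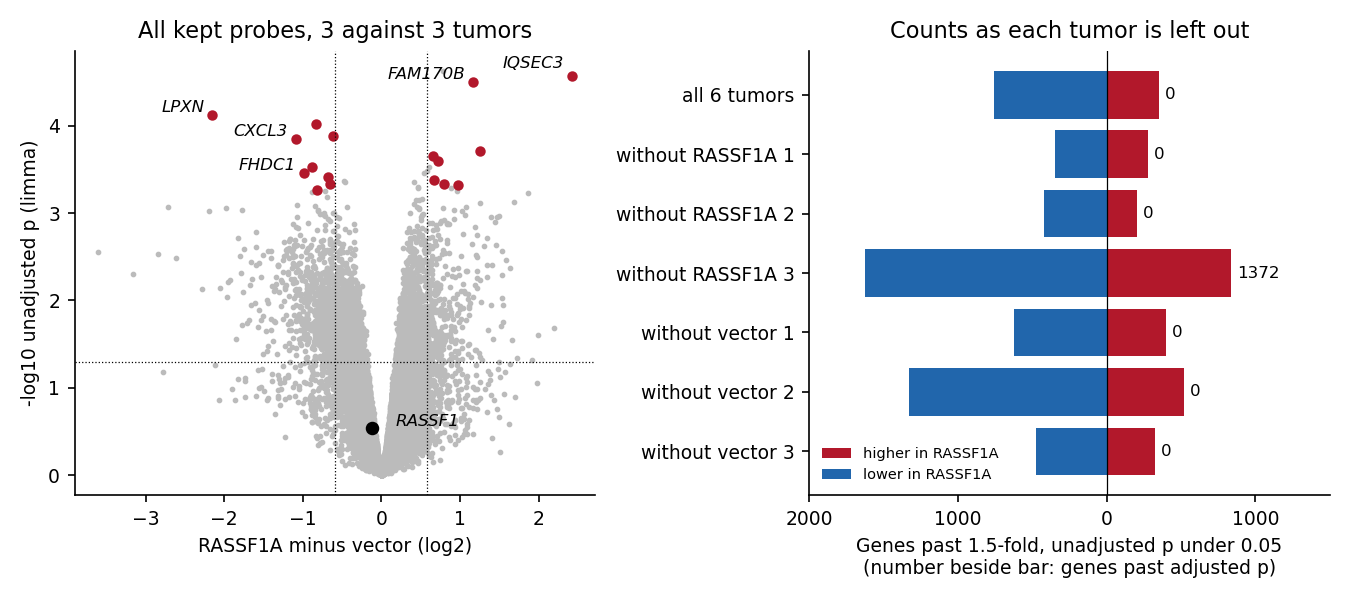
Left, the change of every kept probe (x axis, RASSF1A minus vector in log2) against -log10 of its unadjusted p in limma (y axis), with the named genes in red, RASSF1 in black, and dotted lines at 1.5-fold and an unadjusted p of 0.05. Right, genes past those lines (x axis) when all 6 tumors are used or 1 is left out, with the number past the adjusted p beside each bar, which is 1372 without RASSF1A tumor 3 and 0 otherwise.

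None of the following genes was called with all 6 tumors, and the differences are those with the smallest unadjusted p among genes whose groups do not overlap. On the higher side, IQSEC3, a guanine nucleotide exchange factor for ARF GTPases, read 0.62, 1.13, and -0.60 in RASSF1A tumors against -1.62, -1.98, and -2.50 in vector tumors. The RASSF1A tumors were all higher, by 2.42 ± 0.38 (SE) in log2 or 5.34-fold (adjusted p = 0.32, limma). Its brighter second probe gave 3.42, 3.27, and 3.18 against 3.11, 3.23, and 2.83, so that only one of its probes differed much. CTSZ, the lysosomal protease cathepsin Z, read -0.49, -0.13, and -0.58 against -1.08, -1.13, and -0.96. The groups lie apart, by 1.57-fold. NUDT13, a nudix hydrolase, read -2.78, -2.46, and -2.88 against -3.59, -3.27, and -3.41. FAM170B, SLC24A2, FSIP1, LINC01590, GTSF1L, and PCDH11Y were dimmer. These lay at levels of -7.96 to -5.01 in the 6 tumors, and each of them was not well above background in at least 1 vector tumor. The differences of the 6 genes were 0.67 to 1.26 in log2, and all 6, as well as NUDT13, turned negative under the normexp background correction. That correction also moved the median change of all probes from 0.02 to -0.52. With outlying local backgrounds left out, the 6 were again negative, whereas NUDT13 stayed positive.

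On the lower side, LPXN, the focal adhesion adaptor leupaxin, read -4.20, -4.35, and -2.57 in RASSF1A tumors and -1.26, -1.57, and -1.84 in vector tumors. The RASSF1A tumors were all lower, tumor 3 less so, with a mean difference of 2.15 ± 0.38 in log2 or 4.45-fold (adjusted p = 0.341, limma). AKAP12, a scaffold for protein kinases A and C, was the brightest of these genes, at 3.34, 3.14, and 3.73 against 4.02, 4.05, and 4.19. Of its other probes, 1 read 0.20, -0.39, and 0.51 against 0.64, 0.77, and 0.99, and 1 overlapped between groups. ZDHHC3, a palmitoyltransferase of the Golgi, read -0.88, -0.68, and -0.74 against -0.12, -0.33, and 0.02. Its second probe overlapped, at 0.27, 0.10, and 0.07 against -0.05, 0.10, and 0.06. PAG1, a membrane adaptor that recruits CSK, was 1.77-fold lower, LINC00887 was 1.78-fold lower, and CABIN1, an inhibitor of calcineurin, was 1.57-fold lower, each at its dimmer probe. RGS6 and FHDC1 lay near background, and FHDC1 was not well above it in any of the 6 tumors.

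**Figure D3:**
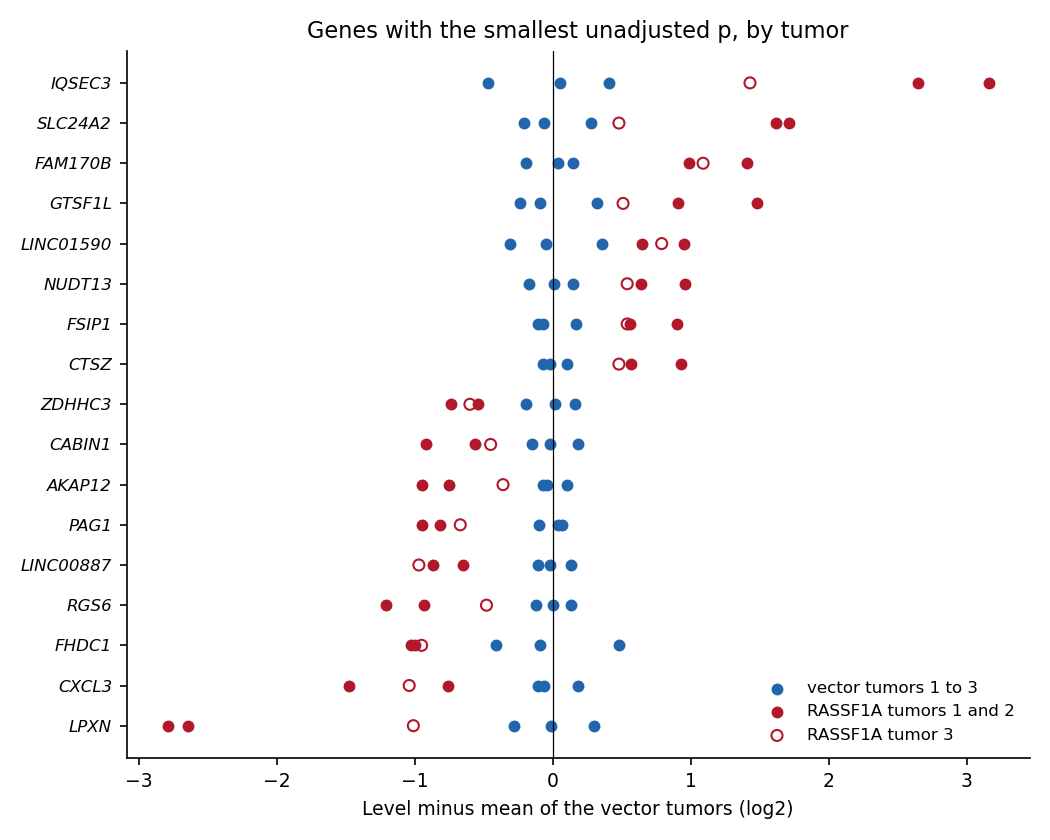
Levels of 17 of the named genes (rows) in each tumor, as the difference from the mean of the vector tumors (x axis, log2). Blue points are vector tumors, filled red points RASSF1A tumors 1 and 2, and open red points RASSF1A tumor 3, which lies nearer to the vector tumors than both other RASSF1A tumors for IQSEC3, LPXN, and AKAP12. PCDH11Y, whose probe may also read its X-linked copy, is not drawn.

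The neutrophil-attracting chemokines read lower in the RASSF1A tumors at some probes. CXCL3 read -5.40, -6.12, and -5.68 in RASSF1A tumors and -4.46, -4.70, and -4.75 in vector tumors. All RASSF1A tumors lay below all vector tumors, tumor 3 included, by 1.09 ± 0.21 in log2 on average, or 2.13-fold (adjusted p = 0.341, limma). CXCL8, at its only kept probe, read -2.48, -3.67, and -2.54 against -1.98, -2.08, and -2.12. CXCL1 and CXCL2 read lower at 1 probe each, CXCL1 at -0.88, -1.24, and -0.76 against 0.025, 0.047, and 0.17, whereas their brighter probes overlapped between groups with differences of -0.17 for CXCL1 and 0.085 for CXCL2 in log2. BIRC3, an inhibitor of apoptosis that NF-kappaB induces, read -0.23, -0.75, and -0.01 against 0.24, 0.28, and 0.49, again with no overlap. Over the 17 measured NF-kappaB targets, the median change at the brightest probe was -0.12, beside 0.03 over all genes. Of these, 3 were lower and 1 higher at an unadjusted p of 0.05, where all genes gave 5.94% lower and 5.82% higher. The higher gene was NFKB1, which encodes the p50 subunit and its p105 precursor.

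Genes that rise in low oxygen read lower in the RASSF1A tumors in nearly every case. Of 24 measured hypoxia genes, 23 had a negative change, with a median of -0.31 in log2 beside 0.03 over all genes. The median was -0.26 for tumor 3 and -0.33 for tumors 1 and 2. Only 4 of the 24 had an interval inside a 1.5-fold change (16.7%, against 68.8% of all genes). Of the 24, 6 were lower at an unadjusted p of 0.05 (25%), against 5.94% of all genes, 4 lay wholly below the vector tumors, where 4.55% of all genes did, and 0 passed the adjusted p. NDRG1, a stress-induced cytoplasmic protein, read 3.90, 2.96, and 3.89 in RASSF1A tumors and 4.40, 4.32, and 4.65 in vector tumors. ENO2, the neuronal enolase of glycolysis, read -2.16, -2.79, and -1.48 against -1.07, -1.45, and -0.55. These groups did not overlap. SLC2A3, the glucose transporter GLUT3, read -3.69, -4.33, and -3.15 against -2.93, -2.75, and -2.87 and was apart at its second probe as well, at -4.52, -5.58, and -4.65 against -4.40, -3.84, and -4.07. SLC2A1, the more abundant glucose transporter GLUT1, read 4.34, 3.86, and 4.18 against 4.27, 4.82, and 4.52, with vector tumor 1 among the RASSF1A tumors. BNIP3L, a mitophagy receptor, was lower and apart at its dimmer probe, -1.91, -2.47, and -1.76 against -1.39, -1.19, and -1.41, and overlapped at its brighter probe. The exception in sign was PFKFB3, with a change of 0.06. Several of the best-known members overlapped between groups, such as CA9, at -2.14, -2.50, and -1.74 against -2.30, -2.49, and -1.09, and LDHA, with a change of -0.21. VEGFA, the vascular growth factor, read 0.28, -0.45, and -1.33 against -0.08, 0.29, and -0.02, so that only tumors 2 and 3 were low, and its second probe read 0.12 in tumor 3, within the vector range. Leaving out RASSF1A tumor 2 brought the median of the list to -0.14.

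The list of immediate early genes, mostly transcription factors that growth factors switch on within minutes, showed the next lowest median. It was -0.25 over 17 genes, of which 15 had a negative change and 5 were lower at an unadjusted p of 0.05 (29.4%, against 5.94% of all genes). For tumor 3 the median was -0.15, and for tumors 1 and 2 it was -0.33. EGR1 read 1.86, 1.58, and 1.68 in RASSF1A tumors against 1.87, 2.72, and 2.14 in vector tumors, and the groups did not overlap, though RASSF1A tumor 1 and vector tumor 1 were almost equal. FOS read -0.86, -1.53, and -1.26 against -0.48, -0.45, and -0.89. FOSL1, a FOS family member, read -0.44, -0.82, and 0.06 against 0.28, 0.19, and 0.08, with tumor 3 just below the lowest vector value. ATF3 differed by -1.16 in log2 at its dimmest probe and by -0.31, -0.031, and 0.15 at its 3 brighter probes. JUN and DUSP1 overlapped between groups. Without RASSF1A tumor 2, the median of the list was -0.13.

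Proliferation genes read slightly higher. The median change of 29 genes was 0.18 in log2, 21 changes were positive, 7 genes were higher at an unadjusted p of 0.05 (24.1%, against 5.82% of all genes), and 11 lay apart from the vector tumors on the higher side, where 10.6% of all genes did. PCNA, the sliding clamp of DNA polymerases, read 2.73, 2.77, and 2.64 against 2.13, 2.54, and 2.50, a difference of 0.32 ± 0.12. MKI67, the marker of cycling cells, read 0.41, 0.32, and 0.38 against 0.26, 0.24, and -0.08. BUB1B, a kinase of the spindle checkpoint, read -0.54, -0.45, and -0.56 against -0.72, -0.82, and -0.82. The largest increase was 1.25-fold, no gene of the list reached 1.5-fold in either direction, and 26 of the 29 genes had an interval inside 1.5-fold. Against this direction, the mitotic kinase AURKB read -4.05, -3.23, and -2.85 against -3.06, -3.29, and -2.54, and CDC20, an activator of the anaphase-promoting complex that RASSF1A binds, read -0.30, 0.10, and 0.48 against 0.45, 0.09, and 0.41.

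Among the genes closest to RASSF1A, 2 of 9 members of the RASSF family (22.2%) and 1 of 18 partners (5.56%) were lower at an unadjusted p of 0.05, against 5.94% of all genes, so that the share among partners was at the background, and 0 were higher. The median change of the RASSF family was -0.14. RASSF4 read -3.73, -4.35, and -3.64 in RASSF1A tumors and -3.16, -3.36, and -3.31 in vector tumors, which do not overlap. RASSF7 read -3.54, -3.36, and -2.70 against -2.60, -2.71, and -2.50, with tumor 3 inside the vector range. RASSF6, which like RASSF1A binds MOAP-1, read 1.07, 0.83, and 1.04 against 1.25, 1.07, and 1.33, and the other members changed by -0.14 to 0.10 in log2. Over 18 known or proposed partners of RASSF1A the changes ran from -0.81 (HRAS) to 0.40 (MDM2), with a median of -0.07. That median was 0.07 for tumor 3 and -0.09 for tumors 1 and 2. HRAS read -1.22, -0.70, and 0.08 against 0.36, -0.22, and 0.44, so that only tumors 1 and 2 lay below the vector tumors. The receptor TNFRSF1A, which recruits MOAP-1 and RASSF1A after TNF binding, read 0.43, 0.46, and 0.24 against 0.21, 0.06, and 0.11, all higher, with a difference of 0.25 ± 0.13 (adjusted p = 0.462, limma).

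The Hippo pathway did not stand out from other genes at the mRNA level. Of 26 components, 18 had an interval inside a 1.5-fold change (69.2%, against 68.8% of all genes), the median was 0.03, the same as over all genes, and 1 was higher and 1 lower at an unadjusted p of 0.05 (3.85% each, against 5.82 and 5.94% of all genes). The MST kinases, which RASSF1A binds, read 3.91, 3.81, and 3.82 against 3.75, 3.73, and 3.57 for STK4 (MST1) and -0.02, 0.06, and -0.18 against -0.41, -0.06, and -0.22 for STK3 (MST2). Their scaffold SAV1 read 0.41, 0.19, and 0.33 against 0.44, 0.80, and 0.50. YAP1, the coactivator that LATS kinases hold in the cytoplasm, differed by -0.05 ± 0.17, LATS1 by 0.20 ± 0.11, and LATS2 by 0.07 ± 0.17. The transcription factor TEAD1 was higher and VGLL4, which competes with YAP1 for TEAD binding, lower at an unadjusted p of 0.05, VGLL4 at -1.35, -1.43, and -0.63 against -0.50, -0.72, and -0.30. For TEAD4 the value of RASSF1A tumor 1 was marked as an outlier and left out. Among 22 YAP and TEAD targets, 18 changes were negative with a median of -0.11, and 0 passed an unadjusted p of 0.05 at the brightest probe. CCN1 and CCN2, widely used readouts of YAP activity, read 1.87, 1.19, and 1.57 against 1.42, 1.83, and 1.66 and -3.72, -4.88, and -3.94 against -4.21, -3.41, and -3.99.

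In the BAX route and BCL2 family, which act downstream of RASSF1A and MOAP-1, 3 of 23 genes were higher and 3 lower at an unadjusted p of 0.05 (13% each, against 5.82% higher and 5.94% lower over all genes). BBC3, the BH3-only protein PUMA, read 1.90, 2.16, and 1.79 in RASSF1A tumors and 1.47, 1.53, and 1.65 in vector tumors, a difference of 0.40 ± 0.12 with no overlap (adjusted p = 0.341, limma). BCL2L11, or BIM, read 4.61, 4.67, and 4.34 against 4.19, 4.50, and 3.77, and the other higher gene was FZR1, the activator of the anaphase-promoting complex that marks MOAP-1 for degradation. On the lower side were MCL1 and BCL2L1, which restrain BAX, and BMF, another BH3-only gene. MCL1 read -2.24, -2.94, and -1.99 against -1.53, -2.37, and -1.18. BAX itself read 0.85, 1.15, and 0.81 against 0.86, 0.60, and 0.90. Of 19 death receptor genes, BIRC3 alone passed an unadjusted p of 0.05 (5.26% lower, near the 5.94% of all genes), and FADD, TRADD, RIPK1, and CASP8 overlapped between groups.

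The remaining lists had medians between -0.10 and 0.11 except for the fibroblast markers. The tubulin and microtubule genes had a median of 0.05, the anaphase-promoting complex 0.10, G1 to S cyclins and kinases 0.04, nucleotide excision repair 0.06, stress response -0.02, interferon response 0.11, and epithelial markers -0.10. CDKN2B, an inhibitor of CDK4 and CDK6, read -4.01, -3.67, and -3.97 against -4.17, -4.19, and -5.05. This direction turned under normexp, where the median change of all probes was -0.52, but not with outlying local backgrounds left out. NT5E, the ecto-enzyme CD73, read -1.97, -2.23, and -1.91 against -1.28, -1.21, and -1.55 at 1 probe and overlapped at the brighter one.

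**Figure D4:**
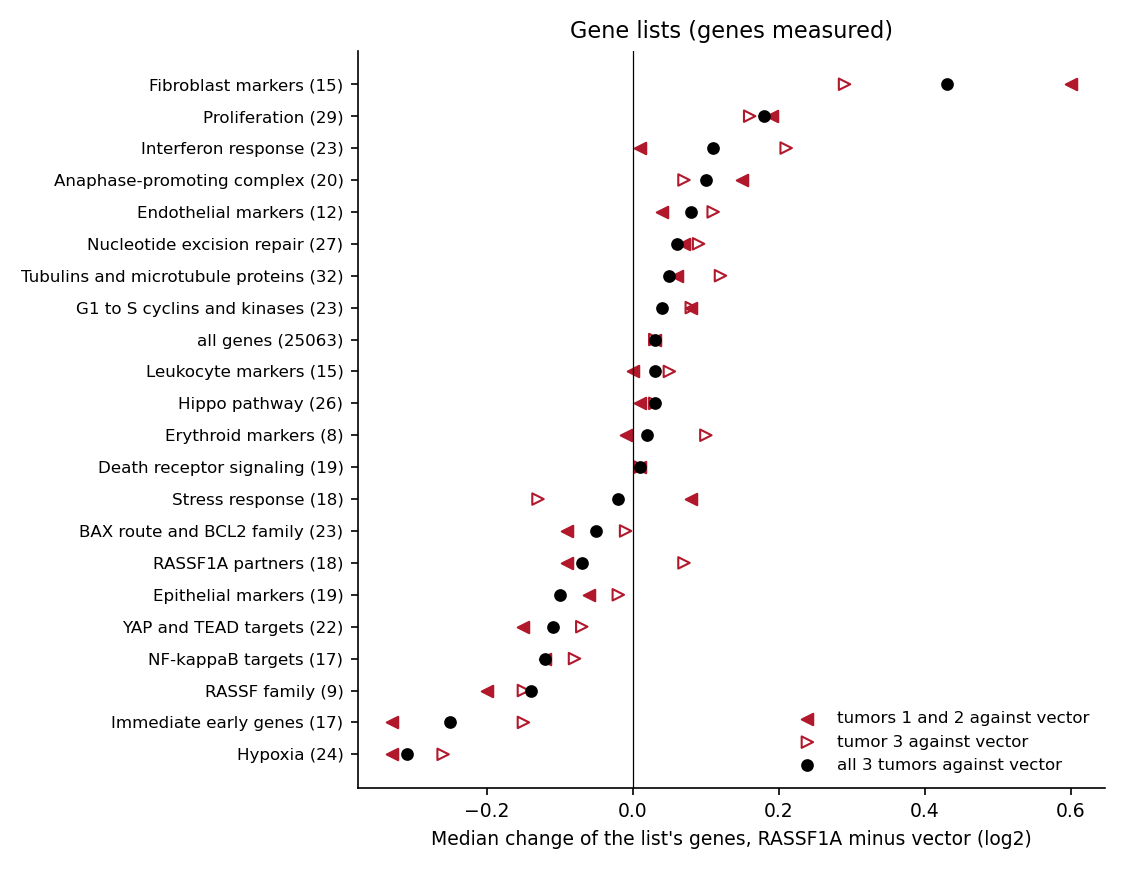
Median change of each gene list at the brightest probe of each gene (x axis, log2, RASSF1A minus vector), with the number of genes measured after each name. Black points use all 3 RASSF1A tumors, filled triangles tumors 1 and 2, and open triangles tumor 3. Hypoxia (-0.31) and immediate early genes (-0.25) lie lowest, proliferation (0.18) and fibroblast markers (0.43) highest. Under normexp the fibroblast median was -0.07, and the median change of all probes was -0.52.

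Markers of other cell types differed among the tumors. Over 19 fibroblast markers on the array, the summed level relative to the 75th percentile was 25.1 to 31.8 in the RASSF1A tumors and 10.8 to 36.5 in the vector tumors, and the low value came from vector tumor 3. Of these, POSTN, LUM, COL6A3, and FBN1 were not well above background in any of the 6 tumors. COL1A2, a collagen chain, read 1.02, 0.68, and 0.62 in RASSF1A tumors against 0.19, 0.31, and -1.84 in vector tumors, and THY1, a fibroblast surface protein, read -3.22 in vector tumor 3 and -0.23 to 0.81 in the 5 other tumors. The median change of the 15 kept fibroblast markers was 0.43, and 0 passed an unadjusted p of 0.05. Under normexp their median was -0.07, but the median change of all probes also moved, from 0.02 to -0.52. The summed leukocyte markers were 22 to 25.9 against 19 to 22.1, which overlap slightly, but the median change of the 15 kept markers was 0.03, with 8 positive and 7 negative. The extremes were ITGAM, the myeloid integrin CD11b, at 0.58 in log2 (2.37, 2.95, and 1.77 against 1.65, 1.76, and 1.95), and S100A8, a neutrophil calcium-binding protein, at -1.19. Of these 16 leukocyte markers, 14 or 15 were well above background in each tumor, beside 85.1 to 90.5% of all probes. S100A9 was so in none. The T cell markers CD3D and CD3E were so in all 6 tumors, although the host mice lack T cells. Being above background at these probes therefore does not by itself show leukocytes. Endothelial markers summed to 5.14 to 5.79 against 5.01 to 5.30, and erythroid markers to 20.8 to 25.3 against 17.2 to 20.2, with no overlap. The probes were designed on human transcripts, and how far they read mouse RNA is not stated. The part of these cell types in the differences above was not tested, and fewer cells of a type cannot be told apart from less RNA per cell in whole tumors.

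Leaving out RASSF1A tumor 3 changed the count of called genes more than any other choice that was run. Tumors 1 and 2 against the 3 vector tumors gave 1372 called genes (5.47%), 260 higher (1.04%) and 1112 lower (4.44%), in limma with the spread estimated from all other tumors. Leaving out any of the other 5 tumors gave 0. Because tumors 1 and 2 had a slide and scan day of their own, construct, slide, and scan day cannot be told apart here.

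At the brightest probe, 4% of all genes were lower and 1.32% higher at an adjusted p below 0.05 in these 2 tumors (limma). Of the 413 distinct genes on the lists, not all of them measured, 28 fell and 3 rose by this test. Among them, 4 of 24 measured hypoxia genes (NDRG1, SLC2A3, PFKFB4, and ENO2) fell, with changes of -1.45 to -0.71. In the other lists, the cyclins CCND1 and CCND3 fell, CCND1 with levels of -0.38 and -0.05 against 0.93, 0.63, and 1.27 and tumor 3 at 0.78. HRAS, DAXX, RASSF4, RASSF7, VGLL4, BCL2L1, ANAPC15, and ERCC3 fell as well, as did CXCL3, FOSL1, SRF, the stress genes DDIT3 and PHGDH, the interferon-induced IFIT3 and BST2, and the epithelial markers ELF3, KRT18, and CLDN7. VGLL4, BCL2L1, ANAPC15, ERCC3, and CXCL3 were each the only gene to fall in their list, of 26, 23, 20, 27, and 17 measured. Over all genes the share was 4%. The 3 that rose were CDC23, VLDLR, and BBC3. In the tubulin list, 4 of 32 genes fell (TUBB4B, TUBG2, TUBGCP2, and TUBGCP6), the last 3 being members of the machinery that nucleates microtubules, by 0.44 to 0.68 in log2. No proliferation gene passed this test. For TUBB4B, CCND1, VGLL4, HRAS, and SRF, tumor 3 lay within the range of the vector tumors. SRF, the serum response factor that drives immediate early genes, read -5.89 and -5.90 in tumors 1 and 2, -4.16 in tumor 3, and -5 to -3.25 in vector tumors, all below the -2.27 to -1.63 of the 9 other tumors.

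The calls in tumors 1 and 2 seldom extended to other probes of the same gene. Of the 1112 genes called lower, 352 had another kept probe, and 35 of those 454 other probes were called lower too (7.71%), while 61.9% had the same sign. The median change was -0.88 at the called probe and -0.09 at the others, beside 0.02 over all kept probes. With all 3 RASSF1A tumors, 55.6% of all genes had a positive change at the brightest probe. Of the 260 genes called higher, 73 had another probe, and 1 of 98 was called higher (1.02%). For comparison, 1147 of all 30585 kept probes were called lower and 261 higher. The 1147 probes called lower had median levels of -2.72 and -2.53 in RASSF1A tumors 1 and 2, -1.72 in tumor 3, -1.62, -1.99, and -1.43 in vector tumors, and -1.26 to -1.11 in the 9 other tumors. These probes were chosen for the difference between tumors 1 and 2 and the vector tumors, so that this difference is fixed by the choice, and only the levels of tumor 3 and of the 9 other tumors are not. The 261 probes called higher read -2.53 and -2.65 in tumors 1 and 2 against -4.00 to -3.49 elsewhere.

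Some probes set tumors 1 and 2 apart from all 13 other tumors by at least 2-fold, 31 genes lower and 12 higher. The genes named in this paragraph were chosen after their values were seen. PLAUR, the urokinase receptor, read -2.90 and -2.81 against -1.36 in tumor 3, -1.17, -1.43, and -0.96 in vector tumors, and -0.89 to -0.11 in the 9 others. KRT18, a keratin of simple epithelia, read 0.43 and 0.48 against 1.65 to 2.70 at 1 probe, but 5.15 and 4.86 against 5.02 to 5.62 at its brighter probe. PCDH15 read -2.52 and -2.54 against -7.62 to -5.71 at 1 probe and -5.65 and -5.40 against -6.81 to -5.34 at the other. WDR33 read -5.87 and -5.42 at 1 probe against -0.59 in tumor 3 and -0.71, -0.42, and 0.06 in vector tumors, and the 9 other tumors lay between, at -4.26 to -1.16. Its 3 other probes changed by 0.16 to 0.17. A dim probe of SPECC1L read -6.62 and -6.55 in tumors 1 and 2, -4.03 to -2.73 on the vector slide, and -5.54 to -3.41 in the 9 others. SLC51B and OR52E8 were likewise lowest in tumors 1 and 2, SLC51B at -5.36 and -5.14 against -1.35 to -0.87 on the vector slide and OR52E8 at -8.19 and -6.67 against -3.09 to -2.48, but by less than 2-fold below the lowest K264R tumor.

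RASSF1A tumor 3 shared its slide with the vector tumors, so that in this comparison slide and scan day did not differ. It gave 36 called genes (0.144%), all lower, by 1.15 to 6.12 in log2 (limma, with the lone tumor assumed to vary like the tumors of the other groups). All 36 rest on probes with a single spot, and all 36 spots lie in rows 1 to 43 and columns 61 to 71 of the array of tumor 3, which has 532 rows and 85 columns. For example, UQCRH, a subunit of respiratory complex III, read -0.01 in tumor 3 and 4.97 to 5.23 in the 5 other tumors, while its other probe read 5.97 in tumor 3 against a vector mean of 6.10. Over the 16 genes with another kept probe, the 20 other probes differed from the vector mean by -0.33 to 0.15, with a median of 0.02. With the 433 spots of rows 1 to 45 and columns 64 to 73 left out, 2 genes were called, OR2T33 and NECTIN1, both at column 61. Between tumor 3 and tumors 1 and 2, 109 genes were called (0.435%), and 36 were called with the block left out. With all 3 tumors and the block left out, 0 genes were called and 1117 passed an unadjusted p of 0.05 with a change of 1.5-fold. None of the genes given above by tumor, other than those of this paragraph, is among the 36.

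**Figure D5:**
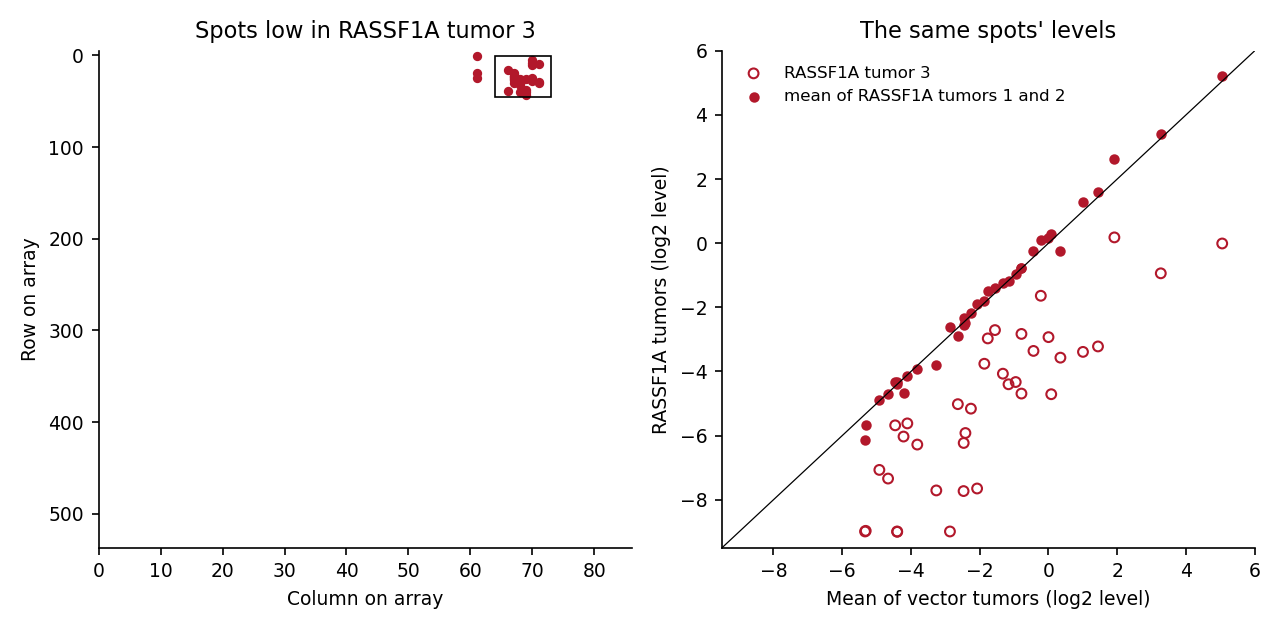
Left, position on the array (column and row) of the 36 spots called lower in RASSF1A tumor 3 than in the vector tumors of its slide, with the block of rows 1 to 45 and columns 64 to 73 outlined. Right, the level of the same spots (log2) in the RASSF1A tumors against the vector mean, with a line of equality. All 36 lie in rows 1 to 43 and columns 61 to 71, where open points (tumor 3) fall below the line and filled points (mean of tumors 1 and 2) lie on or near it.

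In direct comparison, RASSF1A tumors differed from MOAP-1 at 24.3% of genes, from K264R at 26.7%, and from K278R at 18.5% in limma. No slide held RASSF1A or vector tumors together with any of these constructs, so that construct and slide cannot be told apart. ENO2 can serve as an example, with means of -2.14 in RASSF1A, -1.02 in vector, 0.27 in MOAP-1, 0.09 in K264R, and -0.05 in K278R tumors.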

How the data were processed

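Gene expression was measured on 15 single-color Agilent 4x44K human arrays, and the 3 RASSF1A and 3 vector arrays were compared here. Per the file headers the images were read with Feature Extraction 10.5.1.1 (9.1 per the labels), and the processed signal is a background-corrected intensity that the authors deposited without normalization between arrays. The authors also deposited log2 values made in GeneSpring GX, used here only as an alternative. Control and outlier-flagged spots were removed, log2 values of the processed signal were centered on the 75th percentile of their array, and replicate spots were averaged by probe. A probe was kept if any of the 5 constructs had it well above background in its 3 tumors, which left 30585 probes of 25063 genes. RefSeq supplied symbols for 74.5% of probes by accession, and the others keep the name in the files. In limma 3.58.1 (R 4.3.3), 1 linear model over the 15 arrays held construct as its only term, leaving 10 residual degrees of freedom, with Benjamini-Hochberg adjustment. The scripts were tested on simulated data. The methods call the tumors of a construct independent, and whether their cells came from separate transfections is not given in the sources used here. Normalization, background correction, filters, slide, scan day, and left-out tumors were varied as alternatives.

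The tumors, the 21 gene lists, and the tests were chosen with earlier results of these data known. Named genes were the RASSF1 and MOAP1 probes, the 10 higher and 10 lower genes with the smallest unadjusted p among those past 1.5-fold with non-overlapping groups, list members meeting the same terms, and the extremes of each list. Lists are described at the brightest probe of each gene. Coordinates are not given because the reference table and the array design use different genome builds. Some of the named genes are not reported here.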

Additional observations from a re-analysis of the deposited data

Results flagged for a closer look

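The direct comparisons of the RASSF1A tumors with the 3 other constructs gave large counts in the fit over all arrays, with 6086 genes called against MOAP-1, 6704 against K264R, and 4628 against K278R (limma, adjusted p below 0.05 and 1.5-fold). Within the RASSF1A group, tumor 3 differed from tumors 1 and 2 at 109 genes, 50 higher and 59 lower. In each case the difference itself was tested, and in each case the tumors compared were on different slides.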

How the results depend on the processing

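With all 6 tumors, 0 genes were called (limma) under every alternative that kept them in 1 fit without slide or scan day as fixed blocks, including quantile normalization, both normexp corrections, the 3 filters, the deposited log2 table, array weights, and the 6 arrays alone. Leaving out 1 tumor gave 0 to 1372 called genes and 625 to 2450 genes at an unadjusted p of 0.05 with 1.5-fold, with 1372 and 2450 both without RASSF1A tumor 3. The unadjusted count was 625 without RASSF1A tumor 1, 626 without RASSF1A tumor 2, and 1846 without vector tumor 2. With slide as a fixed block 35 genes were called (171 unadjusted), with scan day 36 (174), and on the vector slide alone 36 (172). In that last comparison 2 were called (130) once the block of spots of the tumor 3 array was left out, an alternative added after seeing the data. The unadjusted count of 1105 moved to 1967 with normexp, 429 with normexp after outlying local backgrounds were left out (chosen after seeing the data), 1738 with array weights, 627 with the 6 arrays alone, and 186 by the methods' t-test. Normexp also moved the median change of all probes to -0.52, or to -0.07 without the outlying backgrounds, against 0.02, and raised the share of lower genes from 68.4 to 86.9%. Under it the RASSF1 probe changed by 0.095 (adjusted p = 0.701, limma).

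Against MOAP-1, 2165 genes were called with normexp and 3617 without the outlying backgrounds, against K264R 3057 with normexp, and against K278R 1266 and 2594. Between tumor 3 and tumors 1 and 2 the count was 10 with normexp, 58 without the outlying backgrounds, 47 with array weights, 54 with the replicate block, 36 without the block of spots, and 90 to 667 when 1 of the other tumors was left out (667 without vector tumor 2, 293 without vector tumor 3, and 208 without RASSF1A tumor 2). Deviations of same-numbered RASSF1A and vector tumors correlated at -0.17, 0.23, and 0.33. RASSF1A tumors 2 and 3 correlated best with the vector tumor of their own number, and tumor 1 with vector tumor 2 (0.24). With 3 tumors a group, these values cannot decide whether the numbers pair the tumors. The replicate block gave 0 called genes and 1146 unadjusted.

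MOAP1 changed sign, to 0.053, where tumor 3 alone met the vector tumors on their slide, with slide or scan day as a fixed block or with the block of spots left out. Under normexp FAM170B (-1.46), SLC24A2 (-1.40), FSIP1 (-1.32), LINC01590 (-1.41), GTSF1L (-1.34), PCDH11Y (-1.28), NUDT13 (-0.51), and CDKN2B (-0.96) changed sign, and without the outlying backgrounds FAM170B (-0.18), SLC24A2 (-0.10), FSIP1 (-0.12), LINC01590 (-0.16), GTSF1L (-0.097), and PCDH11Y (-0.043) did. The other genes chosen by smallest p or as list members past 1.5-fold without overlap kept their direction. The cause was not tested. List extremes outside that choice were not followed through all alternatives. Some of them changed sign with tumor 3 alone against vector, such as TUBB4B (-0.53 to 0.097) and VLDLR (0.62 to -0.10), and others did not. The hypoxia median stayed between -0.44 and -0.14 and the proliferation median between 0.13 and 0.25 over all alternatives. Leaving out a single tumor gave the ends of the hypoxia range. Comparisons with MOAP-1, K264R, and K278R could not be made with slide as a fixed block. Array data carry no counting depth, and dim probes carry the least signal over background.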
